A study of Homo sapiens with 30 samples.

Results

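K295A FOXA1, a form of the transcription factor in which the lysine at the position given in its name is replaced by alanine, was put back into LNCaP prostate cancer cells carrying a short hairpin RNA against FOXA1, and the transcriptome of these cells was set against that of cells with the hairpin alone. The comparison used 3 libraries labelled shFoxA1 K295A and 3 labelled shFoxA1. A gene entered it when its RPKM value (reads per kilobase of gene, scaled to library size) was at least 1 in at least 3 of these 6 libraries, which kept 12170 of the 26443 genes with values. Of the genes kept, 11096 reached 1 in all 6 libraries, 156 in the 3 K295A libraries only and 165 in the 3 shFoxA1 libraries only. Such one-sided genes passed through the group in which they were high, so counts over the genes tested describe this filtered set. The 478 genes that reached 1 in exactly 3 libraries had a median mean level of 1.04 RPKM, and the 300 genes left out at exactly 2 libraries had 0.845 RPKM.

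FOXA1 is a pioneer factor: its forkhead domain binds compacted chromatin and opens it for other transcription factors, in luminal prostate cells among others. It is known both for supporting androgen-driven secretory genes and for holding back genes of other cell states. The series deals with control of FOXA1 protein stability by Polycomb and by a BUB3/USP7 deubiquitinating complex, and the lysine changed in K295A has been reported as a site that EZH2, the Polycomb methyltransferase, methylates. The comparison therefore asks which genes a FOXA1 lacking that lysine can bring back.

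The changed residue is shown with its coding context because the whole comparison turns on it. In the GENCODE 29 transcript, the codon of this residue, among 472, is AAG, which encodes lysine, at chr14:37591899-37591901 of GRCh38 in exon 2 of 2. The gene lies on the minus strand at chr14:37589984-37596059. The window below is chr14:37591869-37591931, written 5′ to 3′ on the coding strand, and the capitals mark the codon of the lysine changed in K295A.
FOXA1 codon changed in K295A: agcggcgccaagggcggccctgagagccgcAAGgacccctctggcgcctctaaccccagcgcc
The codon used for alanine in the re-expressed form is not given in the sources used here.

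All 30 libraries of the series came from total RNA of LNCaP, an androgen-responsive line started from a lymph node metastasis of prostate cancer and grown in RPMI with serum. The experiment used here has 4 groups of 3 libraries: pGIPZ (control hairpin vector), shFoxA1 (FOXA1 hairpin with a control vector), shFoxA1 WT (hairpin with HA-tagged wild-type FOXA1) and shFoxA1 K295A (hairpin with HA-295A). Infection lasted 5 days per the labels, in a sample range that leaves out the third K295A library. A separate FOXA1 knockdown in the pLKO vector has 3 control and 3 knockdown libraries of its own. The labels name no clone, no promoter for the re-expressed FOXA1 and no means by which its RNA escapes the hairpin. The labels do not say whether replicates came from separate cultures, and the spread behind each p-value may therefore be technical.

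The table gives no read totals. Depth relative to the first pGIPZ library was taken from the most frequent ratio between low values of the same genes. It ran from 0.847 to 1.298 over the 12 libraries, and 11851 to 12000 genes per library reached 1 RPKM. RPKM values summed to 273703 to 276550 in the shFoxA1 libraries and to 296394 to 297802 in the K295A libraries, so a median-ratio scaling was run beside the deposited values. All 10 luminal prostate markers passed the filter. Markers of other cell types were mostly low in the 6 libraries: DES, PTPRC and MS4A1 were listed at 0 throughout, and KRT5, TP63, CHGA, DCN and PECAM1 stayed under 0.22 RPKM. Others on the same lists were present: KRT14 ran from 1.40 to 7.38, COL1A1 from 3.89 to 5.42, ACTA2 from 1.87 to 7.70, VWF from 0.655 to 1.32, SYP from 0.584 to 1.31 and CD68 from 9.06 to 34.7 RPKM.

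The FOXA1 transcript was restored past its control level. FOXA1 stood at 83.1, 84.0 and 80.4 RPKM in the shFoxA1 libraries and at 154.7, 149.4 and 150.0 RPKM in the K295A libraries, against 130.8, 134.2 and 129.6 RPKM in pGIPZ. The 3 groups did not overlap. The difference from shFoxA1 was 0.87 ± 0.024 (SE) on the log2(RPKM + 1) scale (limma, adjusted p = 5.97e-11), and that from pGIPZ was 0.20. Wild-type re-expression reached 150.8, 152.5 and 152.2 RPKM, within 0.057 log2 units of K295A by the 95% interval. These gene-level values cannot separate re-expressed from endogenous FOXA1 RNA. The related FOXA2 and FOXA3 were at 0 or under 0.09 RPKM in every library and were not tested.

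The kallikreins of the androgen response did not rise with FOXA1. KLK3, which encodes prostate-specific antigen, was at 1276, 1293 and 1269 RPKM in shFoxA1 and at 825, 834 and 839 RPKM in K295A. The K295A libraries were thus the lower ones, by 0.62 ± 0.016 (SE) log2 units, and they also lay below pGIPZ (1444, 1428 and 1435 RPKM). KLK2, the neighbouring kallikrein, fell from 118 to 128 RPKM to 71.8 to 73.6 RPKM, a log2 difference of -0.76. The series' other 3 target genes were higher in K295A on deposited values: EZH2 by 0.47, BUB3 by 0.32 and USP7 by 0.13 log2 units, of which USP7 no longer passed after scaling, at 0.025 (adjusted p = 0.567).

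**Figure D1:**
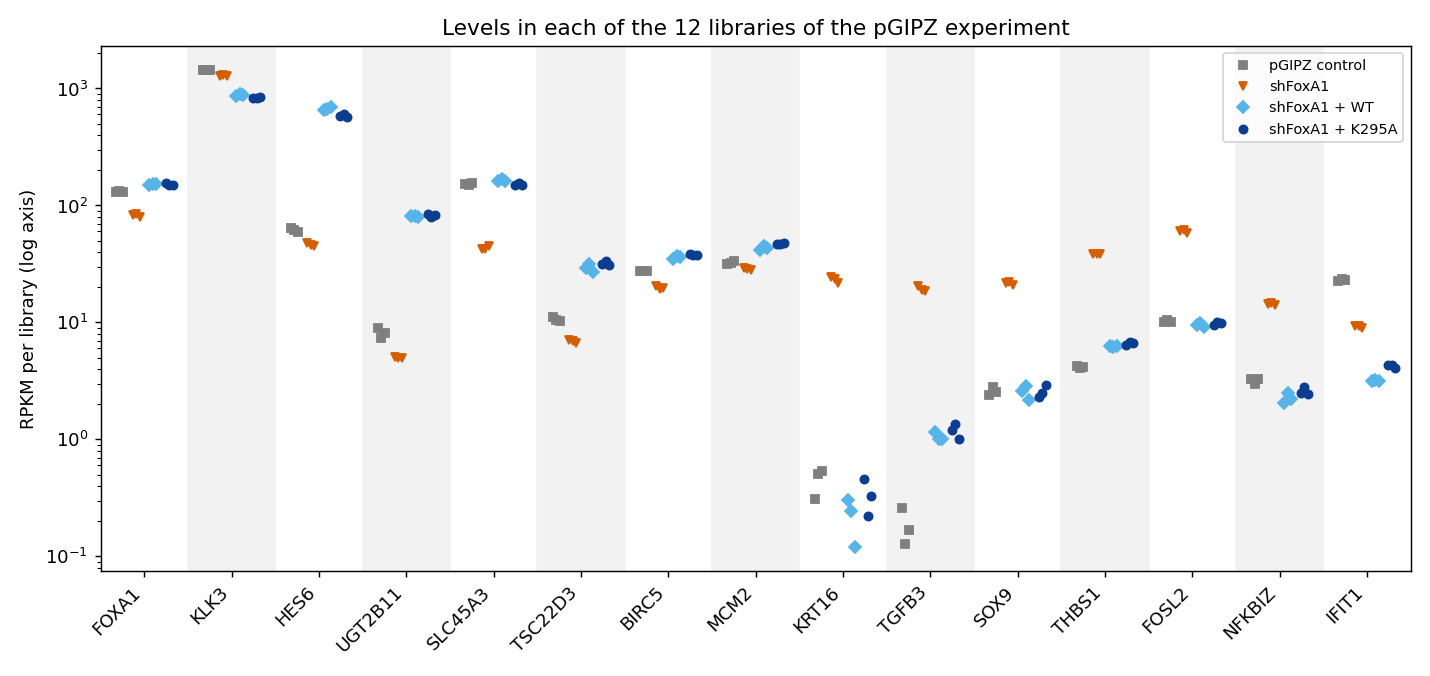
RPKM on a log axis for 15 genes in each of the 12 libraries, with pGIPZ as squares, shFoxA1 as triangles, WT as diamonds and K295A as circles. FOXA1 in K295A (149.4 to 154.7 RPKM) lies above pGIPZ, HES6 lies far above every pGIPZ and shFoxA1 library, and KRT16, SOX9 and FOSL2 are high in the shFoxA1 libraries alone.

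Across the transcriptome K295A moved many genes by small amounts and far fewer by a lot. At an adjusted p under 0.05 by limma, 7113 of 12170 genes (58.4%) were called between K295A and shFoxA1, 4829 higher (39.7%) and 2284 lower (18.8%). For 7873 genes (64.7%) the 3 K295A and 3 shFoxA1 libraries did not overlap. At a fold of at least 2, 142 called genes were higher and 256 lower. The median over all genes tested was 0.10 log2 units, and the range was -4.18 to 3.79. Median-ratio scaling moved that median to 0.0054 and changed the balance of calls to 3256 higher and 3342 lower, that is 49.3% higher in place of 67.9%. Both scalings called 5540 genes in the same direction. With 3 libraries a group, the smallest p of an exact two-sided permutation is 0.1, so single-gene p-values rest on the spread pooled over genes and groups.

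Among the genes that K295A raised most, glucuronosyltransferases and a HES repressor led. UGT2B11, an enzyme that conjugates androgens to glucuronic acid, was at 5.03, 4.94 and 4.99 RPKM in shFoxA1 and at 84.1, 79.7 and 82.1 RPKM in K295A. pGIPZ cells had only 8.95, 7.38 and 8.07 RPKM, so K295A exceeded the control level, by 3.19 log2 units against 3.79 from shFoxA1. HES6, a basic helix-loop-helix factor related to the Notch-responsive HES repressors, went from 47.7, 45.7 and 44.6 RPKM to 582.9, 602.8 and 570.0 RPKM. Its pGIPZ libraries held 64.6, 61.2 and 59.3 RPKM, and its log2 difference from shFoxA1 was 3.64 ± 0.036 (SE, adjusted p = 2.41e-14). All 5 UGT2B genes tested were higher in K295A (39.7% over all genes), and all 5 were also above pGIPZ (38.9% over all genes). One of them, UGT2B10, reached 1 RPKM in the K295A libraries alone and so could only be higher. UGT2B28 reached 19.8 to 20.9 RPKM from 1.40 to 2.39 RPKM, UGT2B15 reached 25.01 to 27.9 RPKM from 4.43 to 4.93 RPKM, and UGT2B17 reached 18.1 to 19.2 RPKM from 5.21 to 5.86 RPKM. These enzymes are near-identical neighbours on chromosome 4 of GRCh38 (UGT2B17 at chr4:68537184-68568527, UGT2B15 at chr4:68646630-68670628, UGT2B11 at chr4:69199951-69214731, UGT2B28 at chr4:69280499-69295050), and reads shared between them make the split among members uncertain.

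The other genes at the top had varied functions. DDC, the aromatic amino acid decarboxylase, was at 3.62, 3.54 and 3.71 RPKM in shFoxA1 and at 35.8, 33.5 and 33.1 RPKM in K295A, a log2 difference of 2.93. RDH10, a retinol dehydrogenase, rose by 2.71 log2 units, from 4.68 to 5.51 RPKM up to 37.1 to 39.3 RPKM. TFF3, a secreted trefoil peptide, rose by 2.59 and RLN1, a relaxin hormone, by 2.31. GNAI1, an inhibitory G protein subunit, was unlike these in its history: it was at 2.10 to 2.46 RPKM in pGIPZ, already higher at 6.43 to 6.64 RPKM in shFoxA1, and higher again at 39.95 to 43.96 RPKM in K295A. PTGFR (the prostaglandin F receptor), PEG3 (an imprinted zinc finger gene), FAM198B, TUBB4A (a beta tubulin), the long noncoding RNA DRAIC and ZPLD1 completed the 15, with log2 differences of 2.14 to 2.36. ZPLD1, at 0.343 to 0.515 RPKM in shFoxA1, entered the test through the K295A libraries alone and so could only be higher. The K295A level of RLN1, 17.7 to 19.5 RPKM, did not pass the limma test against pGIPZ (20.8 to 22.7 RPKM, adjusted p = 0.380). The other 14 genes were called higher than pGIPZ, beside 38.9% over all genes. All 15 were picked for high values in the same K295A libraries, so this count is not a separate result.

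Promoter sequence was examined for the 15 highest and 15 lowest genes with the forkhead core TGTTTAC, searched on both strands of 300-base RefSeq windows (250 bases before to 50 after the start, GRCh38.p14). The motif was in 3.41% of all 27305 promoters in the RefSeq table, in 2.18% of the 8933 tested genes that matched the table, in 2 of 90 matched genes at least 2-fold higher (2.22%) and in 5 of 181 at least 2-fold lower (2.76%). Of the 15 highest genes 10 matched and 1 held it, and of the 15 lowest 8 matched and 0 held it. The single match, in UGT2B15, is shown since it belongs to the family above. The window is chr4:68670799-68670865 on the minus strand, the motif begins 183 bases before the start, and the capitals mark it as its reverse complement, the strand on which it was found.
UGT2B15 promoter: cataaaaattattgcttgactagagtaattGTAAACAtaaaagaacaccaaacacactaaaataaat
A match in these letters is not a binding site, and its absence says nothing about FOXA1 at these genes, since only the 300 bases at each start were searched.

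At the other end stood genes that were high in the shFoxA1 libraries alone. KRT16, a keratin of stressed and basal epithelium, was at 24.4, 23.4 and 21.9 RPKM in shFoxA1 and at 0.458, 0.222 and 0.328 RPKM in K295A, while pGIPZ had 0.312 to 0.535 RPKM. The shFoxA1 libraries alone were high, and K295A did not pass the test against pGIPZ (-0.12 log2 units, adjusted p = 0.308). TGFB3, a transforming growth factor, fell from 20.6, 18.9 and 18.6 RPKM to 1.20, 1.37 and 1.00 RPKM, a log2 difference of -3.22. It remained above pGIPZ, where it was at 0.126 to 0.259 RPKM, by 0.89 log2 units. SOX9, a factor of prostate progenitor and basal cells, went from 21.6, 22.1 and 20.8 RPKM to 2.32, 2.50 and 2.93 RPKM, overlapping the 2.41 to 2.80 RPKM of pGIPZ. SNAI2, the Slug repressor of epithelial genes, fell by 2.90 log2 units, from 10.4 to 13.1 RPKM down to 0.559 to 0.801 RPKM.

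The remaining 11 were the following. The acute-phase gene SAA1 (log2 difference -3.66), the protease inhibitor PI3 (-3.11), the prolactin-induced protein PIP (-3.03), the siderophore binder LCN2 (-2.999) and the calcium-binding S100A9 (-2.73) are secreted or released products. SGK1, a kinase induced by glucocorticoids, fell by 2.69 log2 units, and RGS4, a regulator of G protein signalling, by 2.79. KRT6B (-3.06), WNT11 (-2.90), RTN1 (-2.83) and COL23A1 (-2.57) completed the group. In K295A 4 of these 11 were called below pGIPZ (LCN2, PI3, PIP and KRT6B), 5 above it (RGS4, COL23A1, S100A9, SGK1 and WNT11), and SAA1 and RTN1 did not pass. LCN2 was at 2.59 to 3.63 RPKM against 5.14 to 7.01 RPKM in pGIPZ, and RGS4 at 1.37 to 1.62 RPKM against 0.018 to 0.105 RPKM. KRT6B, PIP and WNT11 were under 1 RPKM in every K295A and pGIPZ library, and PI3 was in every K295A library. These genes, with KRT16 and SNAI2 above, entered the test through shFoxA1 alone and so could only be lower. KRT6B and KRT6A, like SAA1 and SAA2, are close copies whose reads may be divided between them. Values under 1 RPKM lie where the added 1 dominates, so these differences understate the ratio of levels.

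**Figure D2:**
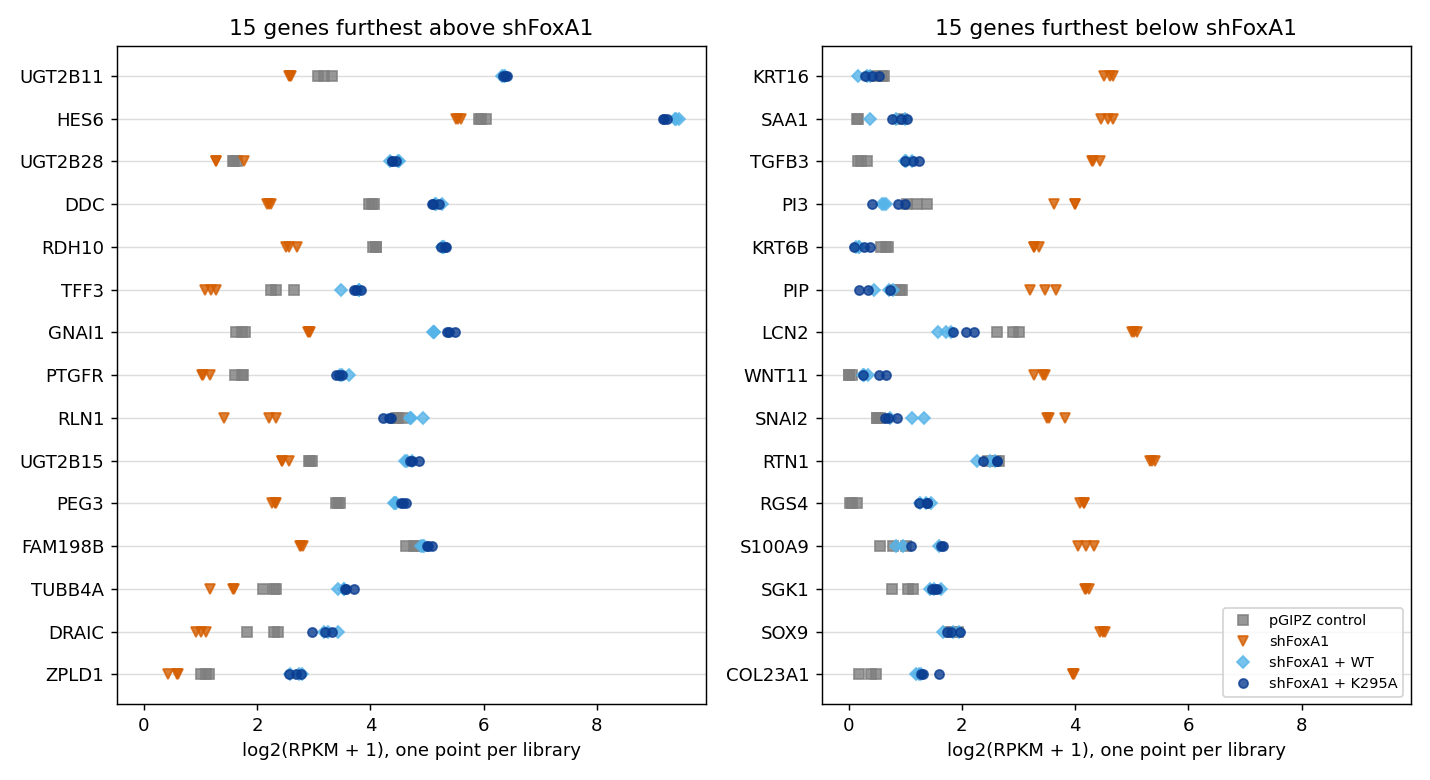
Each of the 12 libraries as a point on the log2(RPKM + 1) scale for the 15 genes furthest above shFoxA1 (left) and the 15 furthest below it (right). On the left K295A circles lie on or near the WT diamonds and mostly above the pGIPZ squares, with UGT2B11 3.19 log2 units above pGIPZ. On the right shFoxA1 triangles stand alone, with KRT16 4.18 log2 units above K295A.

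Androgen-induced genes were called in both directions. Of 49 tested, 23 were higher (46.9%) and 22 lower (44.9%) in K295A than in shFoxA1, beside 39.7% and 18.8% over all genes. After scaling 18 were higher and 25 lower. The median was 0.01 (-0.10 after scaling) beside 0.10 for all genes. INPP4B entered through K295A alone and SNAI2 through shFoxA1 alone, and of the other 47 genes 22 were higher and 21 lower. TSC22D3, a glucocorticoid- and androgen-induced leucine zipper gene, rose from 6.73 to 7.13 RPKM up to 30.9 to 33.6 RPKM, past the 10.2 to 11.2 RPKM of pGIPZ. SLC45A3, the prostein gene, was at 42.3, 42.7 and 45.5 RPKM in shFoxA1 and at 149.1, 156.1 and 150.8 RPKM in K295A. Its K295A libraries overlapped pGIPZ (148.4 to 156.2 RPKM). MAF, a leucine zipper transcription factor, moved the other way, from 44.0 to 46.4 RPKM in shFoxA1 to 8.68 to 9.35 RPKM in K295A. SGK1, SNAI2 and NDRG1, a stress-responsive gene at 32.4 to 33.9 RPKM in K295A against 85.6 to 87.9 RPKM in shFoxA1, also fell.

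Transcription factors of the luminal lineage were also called in both directions. In that list of 19 genes, 8 were higher (42.1%) and 9 lower (47.4%), or 5 and 10 after scaling. The median was 0.00 (-0.11 after scaling). SPDEF, an ETS factor of secretory epithelium, rose from 43.7 to 45.04 RPKM to 79.8 to 81.8 RPKM. GRHL2, a grainyhead factor that maintains epithelial junction genes, fell from 74.8 to 76.7 RPKM to 29.2 to 30.2 RPKM, and ELF1, another ETS factor, fell by 1.17 log2 units. Of 21 forkhead factors and TLE corepressors, 9 were higher and 6 lower (8 and 9 after scaling), shares of 42.9% and 28.6% beside 39.7% and 18.8% over all genes. FOXD1 entered through shFoxA1 alone, and of the other 20 genes 9 were higher and 5 lower. TLE1 and TLE3, Groucho-type corepressors that bind forkhead proteins, moved in opposite directions. TLE1 went from 44.5 to 47.1 RPKM down to 16.3 to 17.2 RPKM, and TLE3 from 16.8 to 18.8 RPKM up to 36.6 to 38.8 RPKM. FOXO3, a forkhead factor restrained by AKT, fell by 1.16 log2 units.

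Keratins and genes of the epithelial-mesenchymal switch were mostly lower. The 4 listed keratins at 1 RPKM or more in all 6 libraries fell, before and after scaling. KRT6A and KRT80 also passed the filter, through shFoxA1 alone, so that they could only be lower. KRT14, of basal cells, went from 5.26 to 7.38 RPKM to 1.40 to 1.78 RPKM, and KRT8, of luminal cells, from 200.3 to 208.7 RPKM to 117 to 122 RPKM. Of 18 genes in the epithelial-mesenchymal list, 12 fell (66.7%) and 3 rose (16.7%), or 12 and 2 after scaling, with a median of -1.13. Over all genes 18.8% were lower and 39.7% higher. SNAI2 entered through shFoxA1 alone, and of the other 17 genes 11 fell and 3 rose. THBS1, the matrix protein thrombospondin, dropped from 38.6, 38.7 and 38.3 RPKM to 6.48, 6.84 and 6.67 RPKM. ID2, an inhibitor of helix-loop-helix factors, fell by 2.14 log2 units. The 3 that rose were EPCAM, an epithelial adhesion gene (0.94), and the TGF-beta pathway members TGFBR1 (0.36) and SMAD7 (0.28). In the claudin and tight junction list of 16 genes, 4 rose (25%) and 8 fell (50%), or 0 and 11 after scaling. CLDN8, a sealing claudin, fell by 0.68 log2 units and CLDN4 by 0.37.

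Summed marker levels of other cell types moved in both directions. Summed luminal markers were 2419 to 2468 RPKM in shFoxA1 and 2017 to 2035 RPKM in K295A. KLK3, the most abundant of these 10 markers, went from 1269 to 1293 RPKM down to 825 to 839 RPKM. The others did not move as a class: KLK2 and KRT8 were also lower, while FOXA1 and TMPRSS2 were higher. Summed basal markers were 6.43 to 8.59 RPKM in shFoxA1 and 1.77 to 2.00 RPKM in K295A, with 1 of 5 passing the filter (KRT14). Summed stromal markers were 11.7 to 12.6 and 7.58 to 8.32 RPKM, with 2 of 8 passing. Summed immune markers were 32.5 to 35.4 and 9.26 to 10.97 RPKM with 1 of 8 passing, nearly all of it CD68, a lysosomal glycoprotein at 32.1 to 34.7 RPKM in shFoxA1 and 9.06 to 10.8 RPKM in K295A. Summed endothelial markers were higher in K295A, at 1.25 to 1.33 RPKM against 0.669 to 0.953 RPKM, with 1 of 4 passing. That 1 was VWF, which entered through K295A alone and so could only be higher. PECAM1, CDH5 and KDR were at 0.037 RPKM or less. Summed neuroendocrine markers overlapped (0.716 to 1.07 RPKM in shFoxA1, 0.849 to 1.40 RPKM in K295A), with 0 of 6 passing. The part of these marker classes in the results was not tested. In bulk RNA, fewer cells of a kind and less RNA per cell cannot be told apart.

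Inflammatory, immediate-early and interferon genes were mostly lower in K295A than in shFoxA1. Over all genes 18.8% were lower and 39.7% higher. In the NF-kB list 15 of 16 genes fell and 0 rose (16 and 0 after scaling). CCL2, CCL20 and SAA2 entered through shFoxA1 alone, and of the other 13 genes 12 fell. NFKBIZ, an inducible nuclear regulator of NF-kB, went from 14.2 to 14.6 RPKM to 2.46 to 2.80 RPKM. Of 17 AP-1 and immediate-early genes 12 fell and 2 rose (13 and 1 after scaling, median -0.86). EGR1 entered through shFoxA1 alone, and of the other 16 genes 11 fell and 2 rose. FOSL2, a FOS-family subunit of AP-1, was at 60.6, 61.4 and 57.9 RPKM in shFoxA1 and at 9.59, 10.0 and 9.90 RPKM in K295A, near the 10.0 to 10.5 RPKM of pGIPZ. JUN, its partner, fell by 1.69 log2 units to 21.2 to 22.8 RPKM, under the 31.6 to 33.9 RPKM of pGIPZ. DUSP4, a phosphatase of MAP kinases, was the largest exception with a rise of 1.96 log2 units, and JUND rose by 0.10 before scaling.

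Interferon-stimulated genes were below pGIPZ in the knockdown and lower still in K295A. Of 39 tested, 29 fell (74.4%) and 4 rose (10.3%) from shFoxA1 to K295A, beside 18.8% and 39.7% over all genes. After scaling 31 fell and 3 rose. The median was -0.37 on deposited values. OAS2, XAF1 and SAMD9 entered through shFoxA1 alone, and without them 26 of 36 fell. Already between pGIPZ and shFoxA1, 34 were lower and 0 higher, and the direct comparison of K295A with pGIPZ had 35 lower and 0 higher (median -0.90). Over all genes the lower shares in these comparisons were 24.5% and 12.7%. These comparisons share libraries and are given side by side. OAS1, an antiviral oligoadenylate synthetase, was at 17.5 to 21.2 RPKM in pGIPZ, 13.05 to 13.96 RPKM in shFoxA1 and 3.44 to 3.91 RPKM in K295A. IFI6, a mitochondrial interferon-induced protein, stood at 264 to 278, 179 to 185 and 75.5 to 85.9 RPKM in the same order. IFI27 fell by 1.58 and IFIT1 by 0.96 log2 units from shFoxA1. The 4 higher genes were HERC5 (0.77), UBE2L6 (0.42), IFI44 (0.41) and OASL (0.17), and OASL no longer passed after scaling.

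Cell-cycle genes rose nearly without exception, each by a modest amount. Over all genes 39.7% were higher and 18.8% lower in K295A than in shFoxA1. Of 55 mitosis and spindle checkpoint genes 54 were higher and 1 lower in K295A, before and after scaling, with a median of 0.68 (0.58 after scaling). BIRC5, which encodes survivin of the chromosomal passenger complex, was at 20.5, 19.3 and 19.7 RPKM in shFoxA1 and at 38.2, 38.0 and 37.6 RPKM in K295A, above the 27.6 to 27.8 RPKM of pGIPZ. CENPA, the centromeric histone H3, rose by 0.95, HMMR, a spindle-associated hyaluronan receptor, by 0.92, and the centrosomal kinase NEK2 by 0.91 log2 units. The 1 lower gene was CENPN (-0.20), a kinetochore gene that the androgen list also holds. All 53 DNA replication genes were higher (51 after scaling, 0 lower), with a median of 0.50. CDC45, part of the replicative helicase, rose by 0.73 and its partner GINS1 by 0.72. MCM2, a subunit of that helicase, went from 28.3 to 29.1 RPKM to 47.1 to 47.8 RPKM, against 31.6 to 33.5 RPKM in pGIPZ. Against pGIPZ itself, 53 of the 55 mitosis genes and 48 of the 53 replication genes were higher and 0 lower, beside 38.9% higher and 12.7% lower over all genes. After scaling 46 mitosis genes were higher and 1 lower, and 35 replication genes higher and 0 lower, while higher calls over all genes went from 4736 to 2542.

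The list of CDK inhibitors and D and E cyclins was called about as often as all genes. Of its 20 genes 9 rose and 4 fell (5 and 7 after scaling), shares of 45% and 20% beside 39.7% and 18.8%. CDKN2B, which encodes the p15 inhibitor of CDK4, fell from 7.72, 8.21 and 7.93 RPKM to 0.829, 0.956 and 0.777 RPKM, below the 3.75 to 4.24 RPKM of pGIPZ. CDKN2B entered the test through shFoxA1 alone, and of the other 19 genes 9 rose and 3 fell. MXD1, an antagonist of MYC, fell by 1.26 and CDKN1A, the p21 inhibitor, by 0.64 log2 units to 99.6 to 102 RPKM. Of 33 p53 targets 11 rose and 13 fell (5 and 15 after scaling), with GADD45A, a stress-induced growth arrest gene, down by 0.92. XAF1 entered through shFoxA1 alone, and of the other 32 targets 11 rose and 12 fell. Replication-dependent histone genes went against the replication list, with 0 of 19 higher and 10 lower (median -0.26). HIST1H2AC fell by 0.93 log2 units to 44.2 to 49.8 RPKM. Near-identical histone copies share reads, so single members are uncertain.

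Biosynthetic lists were mainly higher in K295A, with counts that moved with the scaling. Over all 12170 genes 39.7% were higher and 18.8% lower, and after scaling 3256 genes were higher and 3342 lower. Among cytosolic ribosomal proteins 69 of 72 rose and 0 fell (54 and 0 after scaling), with a median of 0.25 (0.14 after scaling). RPL9 and RPL17 of the large subunit rose by 0.57 and 0.48 log2 units. RPS10, at 0.44, overlapped between groups and was lost on scaling (adjusted p = 0.0780). Without the second shFoxA1 library its difference was 0.28 (adjusted p = 0.124), and it was also lost without the third shFoxA1 or the second or the third K295A library. Of 44 nuclear-encoded respiratory chain genes 33 rose and 1 fell (18 and 5 after scaling), led by NDUFV1 of complex I at 0.49. In the ATF4 and amino acid list 29 of 37 rose and 4 fell (27 and 5 after scaling), with a median of 0.46. PSAT1, an enzyme of serine synthesis, went from 42.5 to 46.1 RPKM to 89.996 to 97.8 RPKM, above the 55.6 to 57.1 RPKM of pGIPZ. The amino acid transporters SLC1A5 and SLC7A11 rose by 1.01 and 0.92.

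Lipid and secretory pathway genes mostly rose from shFoxA1 and were more often below pGIPZ than above it. Of 38 cholesterol and fatty acid genes 23 rose and 3 fell (19 and 7 after scaling), beside 39.7% higher and 18.8% lower over all genes. ACSL3, a long-chain acyl-CoA synthetase, was at 56.7 to 58.0 RPKM in shFoxA1, 96.4 to 97.7 RPKM in K295A and 117 to 121 RPKM in pGIPZ. ELOVL7, a fatty acid elongase, rose by 1.34 log2 units, and THRSP, a lipogenic nuclear protein, fell by 1.03. Of 25 endoplasmic reticulum genes 17 rose and 5 fell (13 and 6 after scaling). XBP1, a factor of the unfolded protein response, rose from 55.3 to 58.2 RPKM to 94.99 to 99.0 RPKM, under the 114 to 123 RPKM of pGIPZ. Against pGIPZ 1 gene of this list was higher and 17 lower (0 and 20 after scaling), and in the lipid list 7 were higher and 18 lower (3 and 23 after scaling). The lower shares were 68% and 47.4%, beside 12.7% over all genes.

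The remaining lists held calls in both directions, beside 39.7% higher and 18.8% lower over all genes, and several had shares near these. Secreted luminal products had 6 of 17 higher and 9 lower (the same counts after scaling), with DDC and TFF3 at the top and PIP and LCN2 at the bottom. PIP and SERPINA3 entered through shFoxA1 alone and AGR3 through K295A alone, and of the other 14 genes 5 were higher and 7 lower. Polycomb subunits had 11 of 25 higher (44%) and 2 lower (8%), or 5 and 6 after scaling. RBBP7, a histone-binding subunit, was the largest change there, from 81.9 to 85.1 RPKM down to 41.4 to 44.3 RPKM, while EZH2 went from 9.29 to 9.88 RPKM to 13.1 to 14.2 RPKM. Genes reported as repressed by EZH2 had 3 of 14 higher and 5 lower (3 and 6 after scaling), the largest being IGFBP3, a carrier of insulin-like growth factors, from 58.6 to 61.2 RPKM down to 8.70 to 9.93 RPKM. The list of USP7, BUB3 and other FOXA1 stability factors had 9 of 19 higher and 4 lower (7 and 6 after scaling), with the proteasome-bound deubiquitinase USP14 up by 0.97. Heat shock and chaperone genes had 14 of 24 higher and 7 lower (9 and 9 after scaling), and the small heat shock genes CRYAB (-1.91) and HSPB8 (-1.89) fell most. Hypoxia and glycolysis genes had 15 of 36 higher (41.7%) and 12 lower (33.3%), or 11 and 17 after scaling, and HIF1A, the hypoxia-inducible factor, fell by 0.89. IGF and ERBB genes had 5 of 14 higher and 6 lower (4 and 7 after scaling), with the insulin receptor substrate IRS1 down by 1.75. IGFBP5, TGFA and NRG4 entered through K295A alone, and of the other 11 genes 3 were higher and 6 lower. Metallothioneins and zinc transporters had 4 of 11 higher and 5 lower (3 and 7 after scaling), with MT1X down by 0.80 and SLC30A4 up by 0.78. Of 25 neuroendocrine and neuronal markers 5 could be tested, with 3 higher and 1 lower before and after scaling: DDC, UCHL1 (0.73) and DLL3 (0.64) rose and TUBB3 (-0.23) fell. UCHL1 entered through K295A alone and so could only be higher, and of the other 4 genes 2 were higher and 1 lower. The TUBB3 call was lost without the second or the third shFoxA1 or the first or the third K295A library, at -0.22, -0.21, -0.22 and -0.23. The 30 basal, stromal, endothelial and immune markers left 5 to test, with 2 higher and 3 lower. VWF entered through K295A alone, and of the other 4 genes 1 was higher and 3 lower. The 29 liver and gut genes left 3, of which TTR rose by 1.496 and CYP3A5 fell by 0.97, each kept by the group in which it was high.

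**Figure D3:**
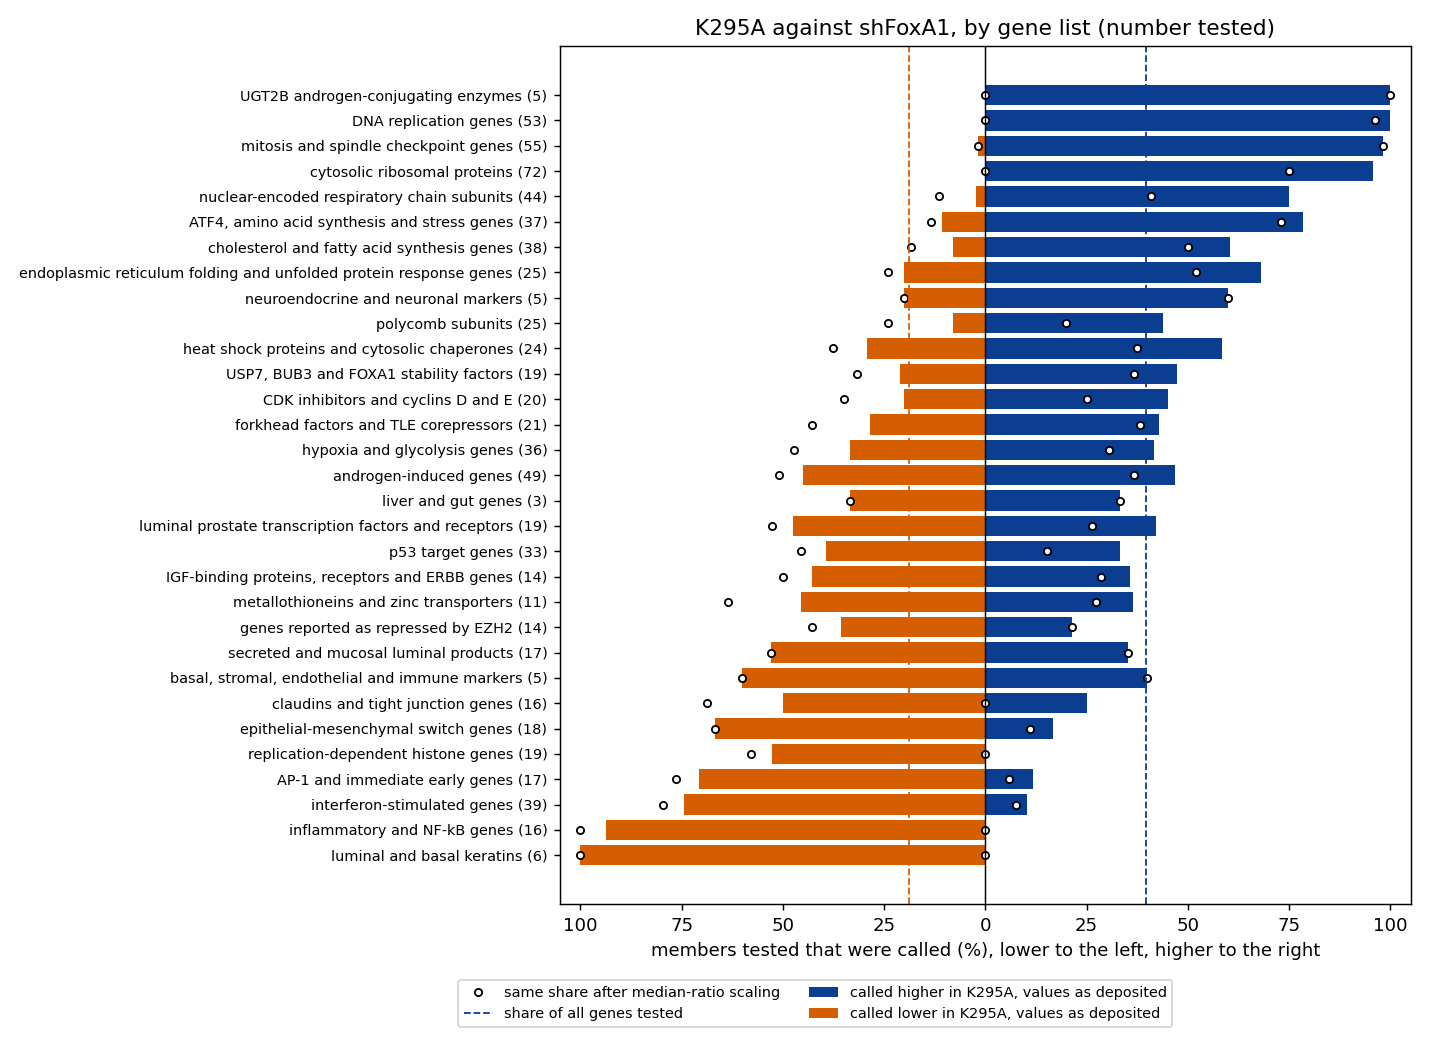
For each of 31 gene lists, the percentage of its tested members called higher (blue, right) or lower (orange, left) in K295A than in shFoxA1, with the number tested in parentheses, open circles for the same shares after median-ratio scaling, and dashed lines at the shares of all genes tested (39.7% higher, 18.8% lower). Mitosis (54 of 55) and replication (53 of 53) genes lie at the higher end and keratins (6 of 6, of which 2 entered through shFoxA1 alone) and NF-kB genes (15 of 16, of which 3 did) at the lower end under both scalings, whereas the polycomb, chaperone and androgen lists shift toward lower calls after scaling.

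Genes chosen in other libraries gave a separate view. In the pLKO experiment, whose values are FPKM (fragments in place of reads), 1109 genes were called at least 2-fold lower and 532 at least 2-fold higher in shFOXA1 than in pLKO control, and no library is shared with the K295A comparison. Of the 1109, 1093 were tested here: 936 were higher in K295A than in shFoxA1 and 35 lower, with a median of 0.44 (824 and 51 after scaling, median 0.34). Of the 532, 484 were tested: 27 were higher and 345 lower, with a median of -0.42 (14 and 386 after scaling, median -0.52). Over all genes 39.7% were higher and 18.8% lower. Both lists include genes that entered through 1 group alone, whose direction the filter fixed. Over all genes tested these were 156 for K295A and 165 for shFoxA1, and their number within the 2 lists is not given here. Among the genes furthest down in pLKO shFOXA1 were UGT2B17, SLC45A3, UGT2B15, DDC and the mitotic regulator PTTG1, which rose by 0.81 in K295A, and TARP, which rose by 1.76. Among those furthest up were CRYAB, IGFBP3, THBS1 and CDKN2B, given above. The phospholipase PLA2G2A fell from 42.0 to 49.0 RPKM in shFoxA1 to 10.1 to 12.2 RPKM in K295A, and BARX2, a homeobox factor, from 3.97 to 4.28 to 0.345 to 0.489 RPKM. BARX2 and CDKN2B entered the test through shFoxA1 alone and so could only be lower. The TARP reading frame lies within the T cell receptor gamma locus, and overlapping annotations there make its value uncertain.

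**Figure D4:**
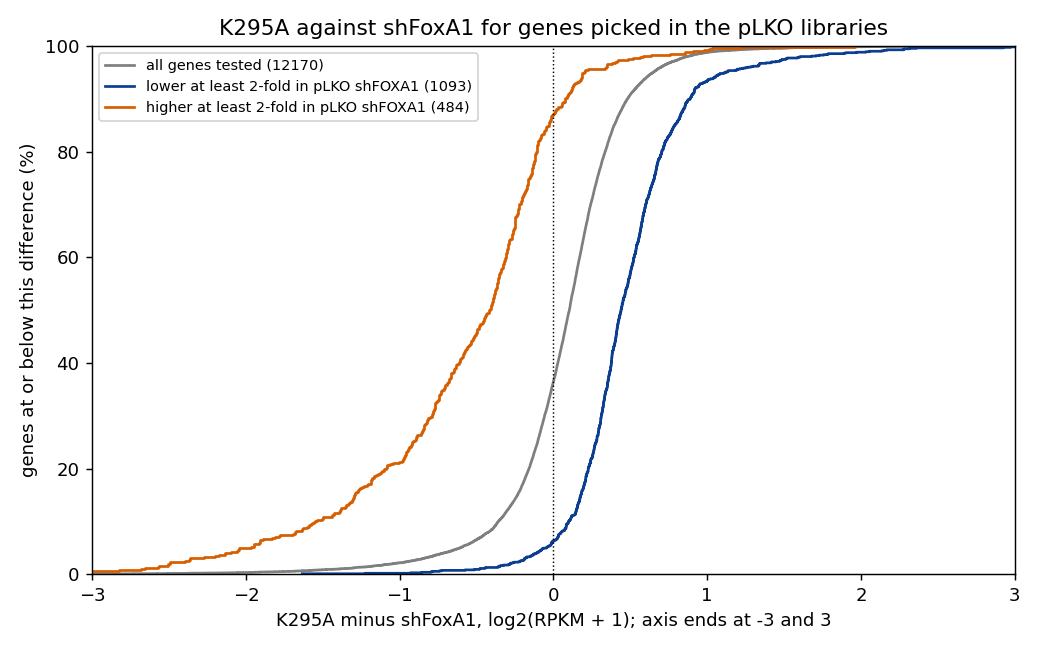
Cumulative percentage of genes by K295A minus shFoxA1 on the log2(RPKM + 1) scale, for all 12170 genes tested (grey), the 1093 genes at least 2-fold lower (blue) and the 484 at least 2-fold higher (orange) in pLKO shFOXA1, with the axis ending at -3 and 3. The blue curve lies to the right of grey (median 0.44 against 0.10) and the orange curve to the left (median -0.42).

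K295A cells also differed from control cells. Against pGIPZ, 4736 genes were higher (38.9%) and 1549 lower (12.7%), which became 2542 and 2542 after scaling, and 63 and 78 called genes differed at least 2-fold in the deposited values. The knockdown alone against pGIPZ had 3157 higher (25.9%) and 2985 lower (24.5%), and these comparisons share the pGIPZ libraries. Furthest above pGIPZ were GNAI1 (3.70), HES6 (3.23), UGT2B11 (3.19), UGT2B28 (2.81), DAPK1 (2.66) and S1PR3 (2.32 log2 units). DAPK1, a death-associated kinase, and S1PR3, a sphingosine phosphate receptor, were higher still in shFoxA1 than in K295A. S1PR3 was at 2.80 to 3.28 RPKM in pGIPZ, 114 to 118 RPKM in shFoxA1 and 19.4 to 19.8 RPKM in K295A. DAPK1 was at 0.373 to 0.484, 10.5 to 10.7 and 7.42 to 8.85 RPKM in the same order.

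Furthest below pGIPZ were PGC, RSAD2, S100P, CXCL10, RAET1L and CCL5. PGC, the aspartic protease progastricsin, went from 49.8 to 50.9 RPKM in pGIPZ through 18.5 to 20.4 RPKM in shFoxA1 to 3.56 to 4.87 RPKM in K295A. S100P, a calcium-binding protein, was at 264 to 294 RPKM in pGIPZ, 37.9 to 41.2 RPKM in shFoxA1 and 33.5 to 39.3 RPKM in K295A, where the last pair did not pass the test (-0.10 log2 units, adjusted p = 0.216) but did after scaling (-0.21, adjusted p = 0.0192). RSAD2, an interferon-induced antiviral enzyme, and the chemokines CXCL10 and CCL5 fell at each step, with K295A minus pGIPZ at -3.01, -2.66 and -2.58 log2 units. RAET1L, a ligand of the NKG2D receptor, was at 0.702 to 0.980 RPKM in K295A against 9.79 to 10.9 RPKM in pGIPZ.

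K295A and wild-type FOXA1 gave close values for most genes. Wild-type re-expression against shFoxA1 gave 4536 genes higher (37.3%) and 2373 lower (19.5%), values that share the shFoxA1 libraries with K295A. The direct test found 25 genes (0.205%) called between K295A and WT, 11 higher and 14 lower in K295A, and 1298 genes had an unadjusted p under 0.05. For 11432 of the 12170 genes (93.9%) the 95% interval of the difference lay within 0.5 log2 units of 0 on either side, and for 97.9% within 1. Among the 398 genes at least 2-fold different between K295A and shFoxA1, 331 (83.2%) had such an interval within 0.5, and 9 were called between K295A and WT. Leaving out 1 library moved the count of 25 to 15, 10 or 14 (first, second or the third WT library) and to 12, 17 or 15 (first, second or the third K295A library). HES6 was 1 of the 25 genes: at 660.9, 672.9 and 697.9 RPKM in WT it was 0.21 log2 units above K295A (adjusted p = 0.0479), set against its rise of 3.64 over shFoxA1. GNAI1 was 0.30 higher in K295A (adjusted p = 0.0268), at 39.95 to 43.96 RPKM against 33.5 to 33.7 RPKM. Both calls held under 2 of 13 alternative settings and were lost on leaving out any 1 of the 6 libraries, with adjusted p up to 0.221 for HES6 and 0.105 for GNAI1. Calls of IFIT3 and OASL held under all 13. So did that of MIR421, a short gene listed at 0 in all 3 K295A libraries that entered the test through shFoxA1 alone.

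Interferon-stimulated genes made up 5 of the 11 genes higher in K295A than in WT. The interferon list of 39 genes had these 5 called higher and 0 lower, with a median of 0.12 beside 0.02 for all genes. IFIT3 was at 6.42, 7.004 and 7.24 RPKM in K295A and at 4.22, 4.39 and 4.27 RPKM in WT, a difference of 0.58 log2 units (95% interval 0.47 to 0.68, adjusted p = 8.71e-04). Both lay below shFoxA1 (9.38 to 10.2 RPKM) and pGIPZ (30.5 to 32.0 RPKM). IFIT2 (0.54), OASL (0.43), IFIT1 (0.33) and ISG15 (0.28), antiviral effectors of the same response, were the others. The ISG15 call was lost under 10 of 13 alternatives, among them leaving out any 1 of the 6 libraries, that of IFIT1 under 2 and that of IFIT2 under 1. IFIT1, IFIT2 and IFIT3 are neighbours on chromosome 10 of GRCh38, between chr10:89283694-89309276 (IFIT2) and chr10:89392546-89406486 (IFIT1). MSMB, a secreted prostate protein, was 0.68 higher (3.24 to 4.75 RPKM against 1.95 to 2.35 RPKM), and KLF4, a zinc finger factor, 0.33 higher. The MSMB and KLF4 calls were each lost under 9 of 13 alternatives, among them 5 of the 6 that left out 1 library.

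The genes lower in K295A than in WT were abundant and differed by little, apart from 3 short RNAs. TMPRSS2, the androgen-induced serine protease, was at 179.4, 183.3 and 179.0 RPKM in K295A and at 200.2, 205.2 and 198.7 RPKM in WT, a difference of -0.16 log2 units (95% interval -0.20 to -0.11). The sphingolipid desaturase DEGS1 differed by -0.18, the sodium pump subunit ATP1B1 and the leucine catabolism enzyme MCCC2 by -0.17 and -0.18, and TARP by -0.41. Of these, DEGS1, ATP1B1, MCCC2 and TARP were all above their shFoxA1 level in K295A. C9orf16 differed by -0.24 and was below it. Calls were lost under 10 of 13 alternatives for ATP1B1, 9 for TARP, 8 each for DEGS1 and C9orf16, 4 for MCCC2 and 2 for TMPRSS2.

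**Figure D5:**
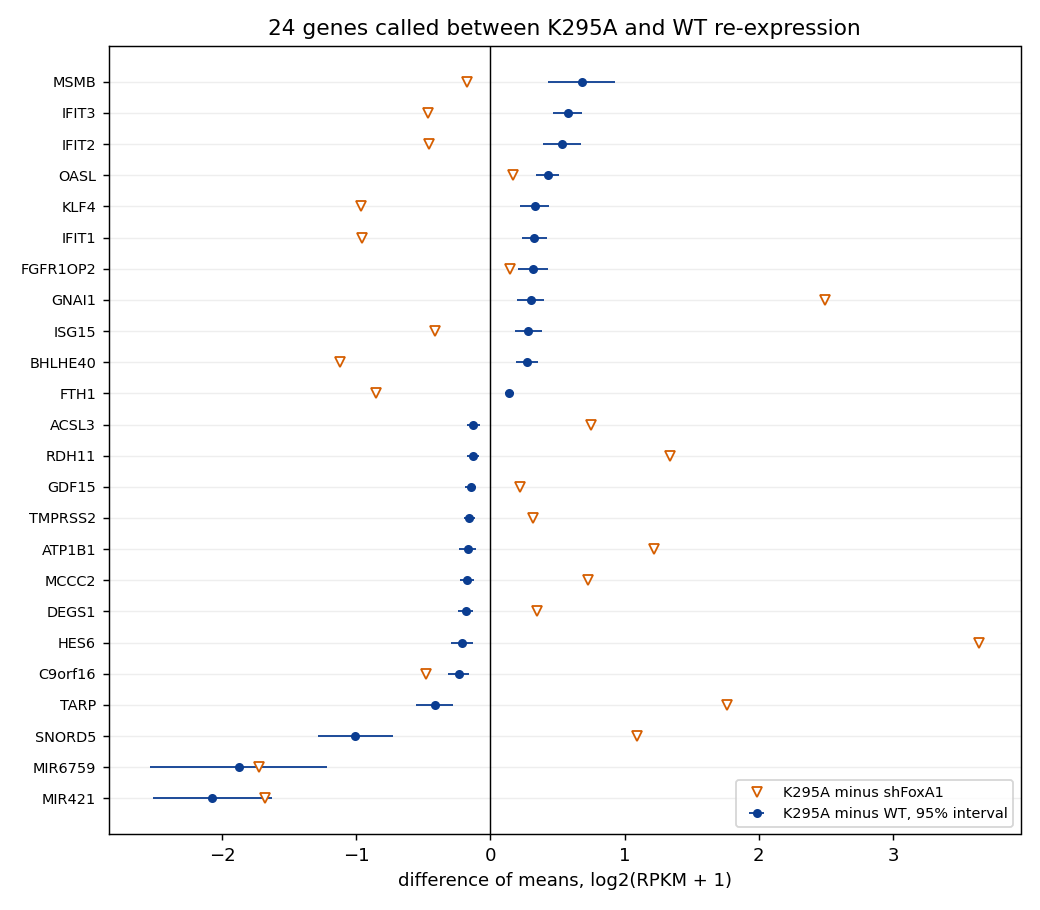
The 24 genes reported of the 25 called between K295A and WT, with K295A minus WT and its 95% interval as circles and bars and K295A minus shFoxA1 as open triangles, all on the log2(RPKM + 1) scale. Apart from the short RNAs SNORD5, MIR6759 and MIR421, every K295A minus WT difference lies between -0.41 and 0.68, while the distance from shFoxA1 reaches 3.64 for HES6.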

How the data were processed

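RNA sequencing of LNCaP cells was read from 12 libraries of the pGIPZ experiment, with 12 pLKO libraries for a separate FOXA1 knockdown. The authors deposited RPKM values for the former and FPKM values for the latter, reads or fragments scaled by gene length and library total. Per the submitters' processing notes, the aligner was STAR and the build hg38. The aligner version, the counter and the annotation were not given in the sources used here. Each table lists genes by symbol, 32 without values. Counting intervals need read totals and could not be given.

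Values were taken as log2(RPKM + 1) or log2(FPKM + 1) from the deposited values, which understates changes of low genes. limma 3.58.1 in R 4.3.3 (intensity trend, 1 term per group, 12 libraries sharing 1 spread) tested each gene two-sided with Benjamini-Hochberg adjustment over 12170 genes, and a call is an adjusted p under 0.05. On simulated data the fit was checked before use. Groups came from sample titles. Alternatives covered pseudocount, filter, scaling, libraries in the fit, block, trend and leaving out each library.

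The genes, the 31 lists and the tests were chosen with earlier results of these data known. Named genes were FOXA1 to FOXA3, KLK2, KLK3, EZH2, USP7 and BUB3, the 15 highest and 15 lowest called genes without overlap between libraries and with a mean of at least 1, fewer for the other comparisons, and up to 4 called members per list. Of the named genes 3 are not reported here. Genes named beside counts of 5 or fewer were chosen after their values were seen. Positions and FOXA1 transcript sequence are from GENCODE 29, promoters from RefSeq.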

Additional observations from a re-analysis of the deposited data

Results flagged for a closer look

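Of the 25 genes that differed between K295A and wild-type FOXA1 in the direct limma test, 24 are given here as K295A minus WT on the log2(RPKM + 1) scale, because that test is of the difference between the 2 re-expressed forms, which are set against the same shFoxA1 libraries. For all 24 the 3 K295A and 3 WT libraries did not overlap. The calls rest on these same libraries, so this adds no separate evidence, and its share over all genes is not given here. Groups of 3 are too small for a test of single outlying libraries.

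Higher in K295A were MSMB (0.68), IFIT3 (0.58), IFIT2 (0.54), OASL (0.43), KLF4 (0.33), IFIT1 (0.33), FGFR1OP2 (0.32), GNAI1 (0.30), ISG15 (0.28), BHLHE40 (0.27) and FTH1 (0.14). FTH1, the ferritin heavy chain, was at 440.5, 433.8 and 438.8 RPKM in K295A, 397.7, 393.9 and 398.2 RPKM in WT and 777.7 to 800.2 RPKM in shFoxA1. BHLHE40, a circadian and hypoxia-linked repressor, was at 13.7 to 14.3, 11.2 to 11.8 and 30.3 to 32.3 RPKM in the same order. MSMB in K295A did not pass the test against shFoxA1 (-0.17, adjusted p = 0.216), while WT lay below shFoxA1.

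Lower in K295A were ACSL3 (-0.13), RDH11 (-0.13), GDF15 (-0.15), TMPRSS2 (-0.16), ATP1B1 (-0.17), MCCC2 (-0.18), DEGS1 (-0.18), HES6 (-0.21), C9orf16 (-0.24), TARP (-0.41), SNORD5 (-1.01), MIR6759 (-1.88) and MIR421 (-2.07). RDH11, a retinal reductase, was at 245.2 to 249.0 RPKM in K295A, 268.5 to 274.4 RPKM in WT and 95.7 to 98.3 RPKM in shFoxA1. MIR421 was listed at 0 in the 3 K295A libraries and at 2.43 to 4.97 RPKM in WT. MIR6759 was listed at 0 in 2 of the 3 K295A libraries. SNORD5 was at 4.31 to 7.30 RPKM in K295A and 12.3 to 13.3 RPKM in WT. The reads behind these 3 short genes were not examined.

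Of the 24 calls 21 were lost under at least 1 alternative, and the calls of IFIT3, OASL and MIR421 were kept under all 13. Those of ACSL3, ATP1B1, FGFR1OP2, GNAI1, HES6, ISG15 and RDH11 were lost on leaving out any 1 of the 6 libraries. MIR421 entered the test through shFoxA1 alone.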

How the results depend on the processing

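Counts of genes called between K295A and shFoxA1 ran from 6505 to 7563 over the settings, with 64.7% to 68.3% of calls higher, except under median-ratio scaling (6598 calls, 49.3% higher). Of 159 named genes 6 changed a call under some setting. The cause was not tested.

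Calls between K295A and WT numbered 25 (11 higher, 14 lower). They became 11 (6 and 5) with no filter on low values, 4 (3 and 1) with only the compared groups in the fit, 8 (6 and 2) without the trend and 10 to 17 on leaving out 1 library (5 to 8 and 5 to 9). Deviations of the 18 pairs of libraries with the same replicate number correlated at -0.11 to 0.047 across genes. This is a description and cannot settle whether libraries with the same number shared a culture or day, which the labels do not state. A fit with the replicate block gave 14 calls between K295A and WT (6 higher, 8 lower) and 6994 between K295A and shFoxA1.

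Against pGIPZ, median-ratio scaling gave 2542 higher and 2542 lower. With no fold minimum on the pLKO lists, 3343 genes of the lower list were higher in K295A and 1263 of the higher list were lower. The sizes of these longer lists are not given here. The counts can therefore not be set as shares beside the 39.7% higher and 18.8% lower over all genes. Lists with more higher than lower calls fell from 16 to 10 of 31 under scaling. List medians that changed sign under scaling were those of androgen-induced genes (-0.10), luminal factors (-0.11), forkhead and TLE genes (-0.061), CDK inhibitors (-0.026), FOXA1 stability factors (-0.027), chaperones (-0.0073) and hypoxia genes (-0.085), and that of IGF and ERBB genes did with a pseudocount of 0.1 (0.0097). On leaving out 1 library the medians ran from -0.00057 to 0.017 for androgen-induced genes, -0.051 to 0.019 for luminal factors, -0.10 to 0.0069 for EZH2-repressed genes and -0.029 to 0.026 for IGF and ERBB genes. No read totals were given, so the precision that depth allows for short RNAs and genes under 1 RPKM is unknown.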
